A study of Mus musculus with 8 samples.

Results

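Integrins and adhesion receptors are described here by 10 genes measured in sorted mouse spleen B cells. The genes are Itgb1, Itga4, Itga5, Itga6, Itgb7, Itgb2, Itgal, Icam1, Icam2 and Cd44. They were taken from the deposited array values as the probe sets that the platform annotation pairs with 1 of these symbols alone. They are 10 of 19937 genes measured in this way. Where a gene has several probe sets, the one with the highest mean over the 8 arrays stands for it, and each of the 10 genes had a single probe set. Only that mean level was used by the rule, and the gene names themselves were chosen by hand with earlier results of these data known, the Itgb1 and Cd44 differences among them. For this reason the differences are a description and the p-values support nothing on their own.

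The study compared adult mice carrying HGAL (GCET2), a human germinal centre adaptor protein, with wild-type littermates. HGAL was driven by the Sca1 (Ly-6E.1) promoter, and the labels call the animals both transgenic and knock-in. All mice were on a CBAxC57BL/6J background, and CD22+B220+ cells were sorted from the spleen. There were 4 Sca1-HGAL and 4 Control arrays, 1 per sample, and the labels do not say whether each sample was a separate mouse. P-values therefore measure the spread between these samples, which may be technical. The Sca1 promoter is not specific to B cells, and neither HGAL itself nor any surface protein was measured by the mouse probe sets used here.

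Integrins are surface receptors made of an alpha and a beta chain, and a chain leaves the endoplasmic reticulum only when paired. The beta-1 chain, encoded by Itgb1, pairs with the alpha-4, alpha-5 and alpha-6 chains among many others and binds VCAM-1, fibronectin and laminin. The beta-7 chain shares alpha-4 and binds MAdCAM-1 of gut vessels. The beta-2 chain (Itgb2) and the alpha-L chain (Itgal) form LFA-1, which binds ICAM-1 and ICAM-2. CD44 is a receptor for hyaluronan. In the spleen, LFA-1 and alpha-4 beta-1 are known to hold marginal zone B cells in place.

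The B-cell list was high in both groups, with a summed level of 15.71 to 15.74 in Control and 15.65 to 15.68 in Sca1-HGAL arrays. All levels here are log2 intensities, and a list's summed level is the log2 of its genes' summed intensities. Cd79b, which encodes a signalling chain of the antigen receptor, was at 13.78 ± 0.04 (SD, n = 4) in the Control group and 13.74 ± 0.04 (SD, n = 4) with HGAL. The median intensity of an array ranged from 145.2 to 151.4. Of the 8 arrays, 2 stood apart in sex-linked genes. In Control replicates 2 and 4, Xist, which coats the silenced X in female cells, was at 12.17 and 12.18, and it was at 5.28 to 5.65 elsewhere. The Y-linked gene Eif2s3y was at 4.22 and 3.96 on these arrays and at 10.21 to 10.61 on the others. The labels give no sex, and some results are also given without these 2 arrays. The marker lists, and single genes other than the 10, were not recomputed without them.

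The promoters of 3 genes are shown for what the results below set side by side. Itgb1 had the largest difference of the 10 genes, Cd44 was highest on the same 2 arrays, and Icam1, a known target of NF-kB, lay near 0. Each sequence is the 250 bases before the start that the RefSeq promoter table (GRCm38.p6) uses, 5′ to 3′ on the gene's strand. For Cd44 that start lies inside the outer bound of the gene in RefSeq, and the last 4 bases of the window are within the gene.
Itgb1, chr8:128685404-128685653, plus strand: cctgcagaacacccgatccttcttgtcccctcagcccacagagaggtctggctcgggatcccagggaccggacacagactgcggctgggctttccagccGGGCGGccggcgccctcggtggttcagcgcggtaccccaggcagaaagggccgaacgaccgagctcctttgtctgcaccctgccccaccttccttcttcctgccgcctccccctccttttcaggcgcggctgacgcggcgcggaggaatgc
Cd44, chr2:102901666-102901915, minus strand: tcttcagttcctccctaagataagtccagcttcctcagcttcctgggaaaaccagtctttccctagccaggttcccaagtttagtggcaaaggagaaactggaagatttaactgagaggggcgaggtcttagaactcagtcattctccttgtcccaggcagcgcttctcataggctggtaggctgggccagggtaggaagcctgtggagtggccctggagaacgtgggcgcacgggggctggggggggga
Icam1, chr9:21015690-21015939, plus strand: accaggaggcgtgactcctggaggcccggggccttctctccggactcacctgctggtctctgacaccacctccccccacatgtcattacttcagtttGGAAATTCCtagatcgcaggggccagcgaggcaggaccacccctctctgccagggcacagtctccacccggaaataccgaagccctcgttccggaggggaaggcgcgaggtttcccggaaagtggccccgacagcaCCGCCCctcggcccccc
Capitals mark matches on either strand. The GC box was searched as GGGCGG. The NF-kB-type sequence known from Icam1 was searched as GGAAATTCC. The TATA box, searched as TATAAA, had no match in these 3 windows. Of 32851 windows of this length, 32.7% hold the GC box, 0.286% the NF-kB-type sequence and 12.4% the TATA box. No matches overlap. The Itgb1 window holds 1 GC box, 151 bases before the start. The Icam1 window holds the NF-kB-type sequence 153 bases before the start and a GC box on the other strand at 17 bases. The Cd44 window holds no match. G and C make up 68.0% of the Itgb1 window, 65.2% of the Icam1 window and 56.4% of the Cd44 window. These matches are letters in a window and do not show that a factor binds. The table also held Itga4, Itga5 and Itgb7, so 6 of the 10 genes matched, and Itga6, Itgal, Itgb2 and Icam2 did not.

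Itgb1, the common beta chain of the VLA integrins, had the largest difference of the 10 genes and the widest spread. In Control replicates 1 to 4 its level was 8.49, 8.91, 8.98 and 8.90. In Sca1-HGAL replicates 1 to 4 it was 10.87, 10.45, 9.002 and 9.54. Sca1-HGAL replicates 1 and 2 were high, at 4.15 and 3.10 times the Control mean on the linear scale. Replicate 4 was between them and the Control arrays, at 1.64 times, and replicate 3 was beside the Control arrays, at 1.13 times. The groups did not overlap, but the gap between the lowest Sca1-HGAL and the highest Control array was only 0.026. With a second quantile normalisation or with median centring the groups overlapped.

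The mean of Itgb1 was 8.82 ± 0.22 (SD, n = 4) for Control. For Sca1-HGAL it was 9.97 ± 0.85 (SD, n = 4). The log2 difference, Sca1-HGAL minus Control, was 1.15 (SE 0.34), with an unadjusted 95% interval from 0.38 to 1.91. The limma SE and interval take 1 variance for both groups, although the SDs were unequal here. With a trended robust prior the SE was 0.41. The difference did not pass limma over all 21640 named probe sets, with an adjusted p = 0.33. Across 18 alternative settings the difference ranged from 0.84 to 1.47 and the adjusted p from 0.072 to 0.64. The smallest of these came without Sca1-HGAL replicate 3, with a difference of 1.47. Leaving out the 2 Xist-high arrays gave 1.23 (adjusted p = 0.60). RNA of sorted cells in bulk cannot tell more Itgb1 RNA per cell from more cells that express it.

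The 3 alpha partners of Itgb1 among the 10 genes, Itga4, Itga5 and Itga6, had log2 differences between -0.12 and 0.24, none past the test. Itga4, the alpha chain shared by the VCAM-1 and MAdCAM-1 receptors, was at 12.13, 12.20, 11.96 and 12.08 in Control replicates 1 to 4. It was at 11.87, 11.92, 12.18 and 12.10 in Sca1-HGAL replicates 1 to 4. The 2 arrays highest in Itgb1 were the lowest of all 8 in Itga4, and the groups overlapped. The log2 difference of Itga4 was -0.08 (SE 0.09, limma adjusted p = 0.83), with an interval from -0.27 to 0.11.

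Itga5, the alpha chain of the fibronectin receptor, was at 6.37, 6.47, 6.51 and 6.21 in Control replicates 1 to 4. It was at 6.94, 6.64, 6.57 and 6.39 in Sca1-HGAL replicates 1 to 4. Of the Sca1-HGAL arrays, 3 lay above all Control arrays, with replicate 1 highest and replicate 4 within the Control range. The log2 difference was 0.24 (SE 0.11, limma adjusted p = 0.54), with an interval from -0.01 to 0.50. It was 0.14 without Sca1-HGAL replicate 1 and 0.16 with array weights. These levels were close to log2 6, and the deposited values carry no detection calls.

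Itga6, the alpha chain of a laminin receptor, ranged from 8.22 to 8.78 in Control and from 8.14 to 8.41 in Sca1-HGAL arrays. Control replicate 2, one of the Xist-high arrays, held the highest value. The log2 difference was -0.12 (SE 0.12, limma adjusted p = 0.81), with an interval from -0.39 to 0.15. It was 0.01 without that array and -0.017 without both Xist-high arrays.

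**Figure D1:**
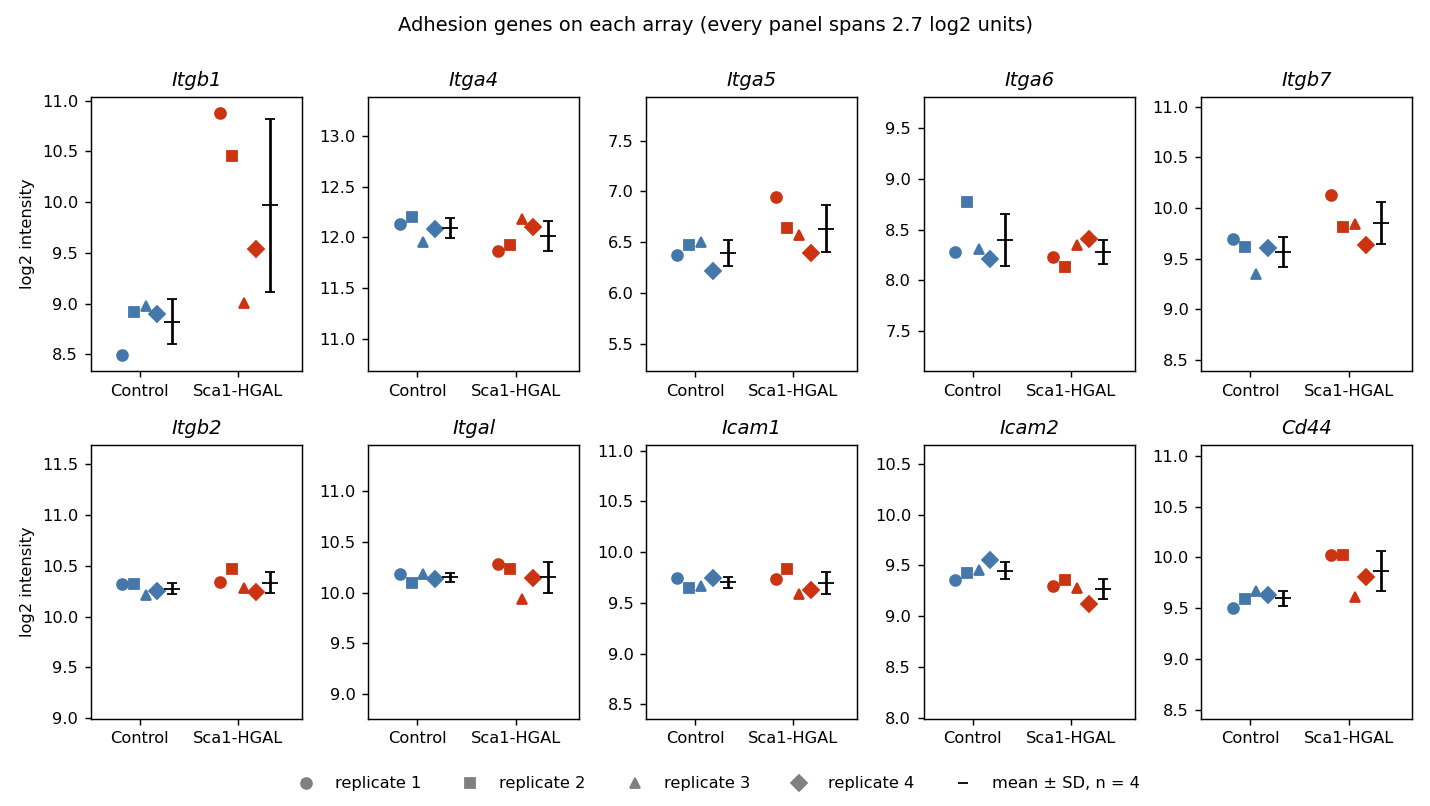
Log2 intensity (vertical axis) of each adhesion gene on the 4 Control and 4 Sca1-HGAL arrays, with a symbol for each replicate number and the mean ± SD beside each group. Itgb1 spans 9.002 to 10.87 in Sca1-HGAL arrays against 8.49 to 8.98 in Control arrays, while Itga4 and Itgb2 stay within narrow, overlapping ranges.

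Whether a beta chain and its alpha partner differed unequally between the groups was tested within each array, as the log2 level of the beta chain minus that of the alpha chain. This compares differences, not levels, between probe sets. The SE of a partner difference comes from the 2 group variances without moderation, while the other SEs are those of limma. Relative to the Control mean, Itgb1 minus Itga4 was 2.28, 1.80, 0.10 and 0.71 in Sca1-HGAL replicates 1 to 4, against -0.37 to 0.29 in Control arrays. Replicate 3 lay within the Control range and the other 3 above it. The difference between the groups was 1.22 (SE 0.52), with an exact two-sided permutation p = 0.057 over 70 assignments of the arrays. For Itgb1 minus Itga5 it was 0.90 (SE 0.36, exact permutation p = 0.114), and for Itgb1 minus Itga6 1.26 (SE 0.50, exact permutation p = 0.086).

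Over the 5 pairs compared, none passed after Benjamini-Hochberg adjustment, where these 3 pairs each had p = 0.143 by the exact permutation test. The smallest unadjusted p that 8 arrays allow is 0.0286. Without Sca1-HGAL replicate 3 the 3 Itgb1 pairs had differences of 1.60, 1.20 and 1.61 and an exact permutation p = 0.048 each after adjustment. The call on unequal beta-1 and alpha chain differences thus depends on that single array.

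**Figure D2:**
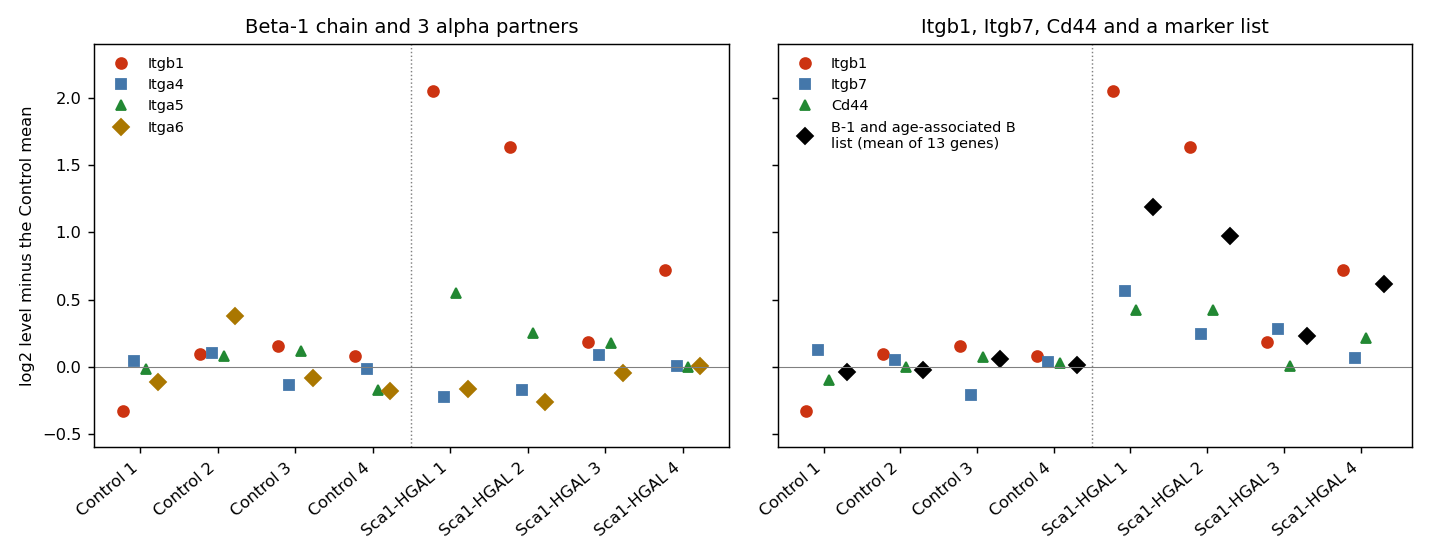
Log2 level minus the Control mean (vertical axis) on each of the 8 arrays (horizontal axis), for Itgb1 with Itga4, Itga5 and Itga6 on the left, and for Itgb1, Itgb7, Cd44 and the mean of the B-1 and age-associated B list on the right. Itgb1 reaches 2.05 and 1.63 in Sca1-HGAL replicates 1 and 2 and 0.18 in replicate 3, and the 3 alpha chains lie between -0.26 and 0.55 in Sca1-HGAL arrays.

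Itgb7, the other beta partner of alpha-4, was at 9.69, 9.62, 9.35 and 9.60 in Control replicates 1 to 4. It was at 10.13, 9.81, 9.84 and 9.63 in Sca1-HGAL replicates 1 to 4. Of the Sca1-HGAL arrays, 3 lay above all Control arrays, and replicate 4 lay inside their range. The log2 difference was 0.29 (SE 0.11), a linear fold of 1.22, with an interval from 0.04 to 0.53 and a limma adjusted p = 0.45. Itgb7 minus Itga4 differed by 0.36 (SE 0.16, exact permutation p = 0.057, 0.143 over the 5 pairs). In Sca1-HGAL replicates 1 to 4 that difference stood at 0.79, 0.41, 0.19 and 0.06 above the Control mean, with Control arrays from -0.08 to 0.08. Without Sca1-HGAL replicate 1 the difference between the groups was 0.22.

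Both chains of LFA-1 had differences near 0. Itgb2 ranged from 10.22 to 10.32 in Control and from 10.24 to 10.47 in Sca1-HGAL arrays, a log2 difference of 0.06 (SE 0.07, limma adjusted p = 0.83). Itgal ranged from 10.09 to 10.19 and from 9.93 to 10.28, a log2 difference of -0.00019 (SE 0.080, limma adjusted p = 1.00). The intervals, from -0.09 to 0.21 for Itgb2 and from -0.18 to 0.18 for Itgal, bound the size of any difference. Itgb2 minus Itgal differed by 0.06 (SE 0.08, exact permutation p = 0.51). The lowest Itgal level was in Sca1-HGAL replicate 3, the array also lowest in Itgb1 among its group.

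Of the ligands of LFA-1, Icam1, which B cells raise on activation, ranged from 9.65 to 9.75 in Control and from 9.59 to 9.83 in Sca1-HGAL arrays. Its log2 difference was -0.0065 (SE 0.068, limma adjusted p = 0.99), with an interval from -0.16 to 0.15. Icam2, the constitutive ligand of resting lymphocytes and endothelium, was at 9.36, 9.43, 9.45 and 9.56 in Control replicates 1 to 4. It was at 9.30, 9.35, 9.28 and 9.12 in Sca1-HGAL replicates 1 to 4. All 4 Sca1-HGAL arrays lay below the Control arrays, by a gap of 0.0040 that was lost with a second quantile normalisation or median centring. The log2 difference of Icam2 was -0.18 (SE 0.07, limma adjusted p = 0.45), with an interval from -0.34 to -0.03. It was -0.14 without the 2 Xist-high arrays.

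Cd44, the hyaluronan receptor, was at 9.50, 9.59, 9.67 and 9.63 in Control replicates 1 to 4. It was at 10.02, 10.02, 9.61 and 9.81 in Sca1-HGAL replicates 1 to 4. Replicates 1 and 2 were high, as for Itgb1, and replicate 3 lay within the Control range. The log2 difference was 0.27 (SE 0.10), a linear fold of 1.20, with an interval from 0.05 to 0.48 and a limma adjusted p = 0.41. Without Sca1-HGAL replicate 3 the groups did not overlap, and the difference was 0.35 (limma adjusted p = 0.115).

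Of the 10 genes, 0 passed limma at an adjusted p under 0.05, against 0.00502% of all genes, which is 1 of 19937. At an unadjusted p under 0.05 there were 4, Itgb1, Itgb7 and Cd44 with higher and Icam2 with lower values, against 9.53% of all genes, 5.49% higher and 4.03% lower. Groups did not overlap for 2 of the 10, against 5.48% of all genes, 3.1% higher and 2.37% lower. Nothing is read from these shares, since the genes were chosen with results known. Without the 2 Xist-high arrays, Itgb1 alone had an unadjusted p under 0.05. Without Sca1-HGAL replicate 1 there were 2 such genes. The median log2 difference of the 10 was 0.03, against 0.02 over all genes, with 5 positive and 5 negative. Within the Sca1-HGAL group, replicates 1 and 2 each held the highest level of 4 genes, and replicates 3 and 4 each held the lowest of 4.

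**Figure D3:**
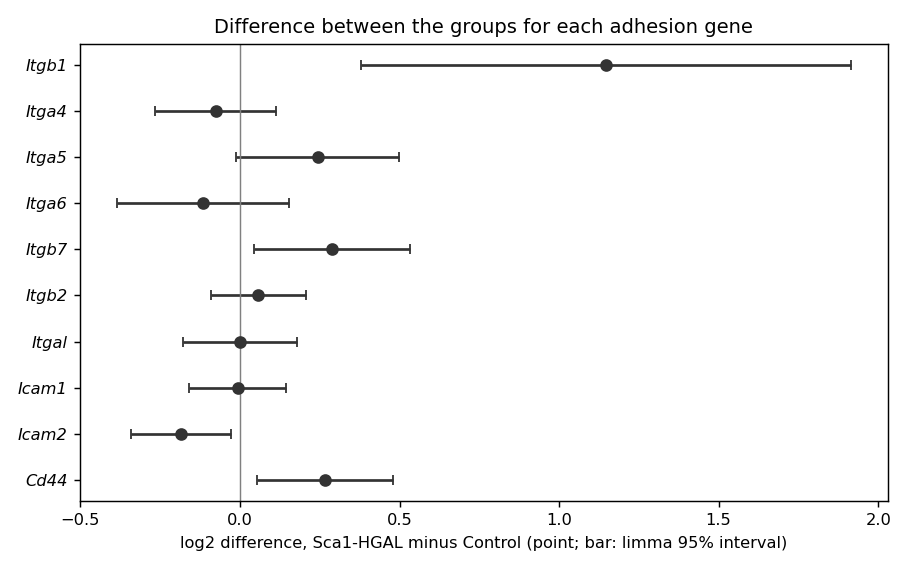
Log2 difference, Sca1-HGAL minus Control (horizontal axis), of each adhesion gene, with the unadjusted limma 95% interval as a bar. Itgb1 lies at 1.15 with a wide interval from 0.38 to 1.91, and the other 9 genes lie between -0.18 and 0.29.

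The genes whose profile over the 8 arrays lay nearest to that of Itgb1 were Bhlhe41, Fah, Zbtb32, Itgam and App. Nearness was the root mean square difference of log2 levels after each gene was centred on its own mean, over 15723 genes with a mean of at least log2 6. It was 0.17 for Bhlhe41, 0.18 for Fah, 0.19 for Zbtb32, 0.21 for Itgam and 0.23 for App, against a median of 0.79 over all these genes. Bhlhe41, a transcription factor known from B-1 cells, was at 10.13, 9.33, 7.76 and 8.73 in Sca1-HGAL replicates 1 to 4, and at 7.71 to 8.14 in Control arrays. Its log2 difference was 1.08 (SE 0.40, limma adjusted p = 0.43). Zbtb32, a transcriptional repressor, had a log2 difference of 1.15 (SE 0.39, limma adjusted p = 0.39) and App, the amyloid precursor protein, 1.18 (SE 0.30, limma adjusted p = 0.25). Fah, an enzyme of tyrosine breakdown, had 1.00 (SE 0.42, limma adjusted p = 0.50). As with Itgb1, replicate 1 was highest and replicate 3 lowest of the Sca1-HGAL arrays for Bhlhe41.

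Of these 5 genes, 3 also stand on the B-1 and age-associated B marker list. That list was chosen with earlier results of these data known, so nothing is read from the overlap or the counts below. The level of the list varied over the arrays in step with Itgb1. The mean log2 level of its 13 genes was 8.16 to 8.26 in Control arrays. It was 9.39, 9.17, 8.44 and 8.82 in Sca1-HGAL replicates 1 to 4, the same order as for Itgb1. The neutrophil, T cell and NK cell lists had that order of Sca1-HGAL arrays too. The summed level of the 13 genes ranged from 12.24 to 12.45 in Control and from 12.55 to 13.54 in Sca1-HGAL arrays. Of the 13 genes, 12 had a positive difference and 10 an unadjusted p under 0.05, and none passed limma over all probe sets. Among all 19937 genes, 11238 differences were positive and 9.53% had such a p. The listed genes without such a p were Fcrl5 at 0.57 (SE 0.30), Cd5 at 0.06 (SE 0.20) and Bhlhe40 at -0.0016 (SE 0.19). Each of them had overlapping groups. Cd80, a costimulatory ligand, had a log2 difference of 1.46 (SE 0.28, limma adjusted p = 0.130), and Zbtb20, a transcription factor, 0.95 (SE 0.19, limma adjusted p = 0.138). The part of these cells in the Itgb1 values was not tested.

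For Icam2 the nearest profiles were Dhcr7, Ncstn, Slc19a1, Tmc6 and Repin1, at 0.043 to 0.048. The median over all genes was 0.16, so a small distance here reflects the small range of Icam2. The log2 differences of these 5 genes lay between -0.16 and -0.11.

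Marker lists of other cell types, also chosen with earlier results known, varied between arrays too. Over all genes, 11238 of 19937 differences were positive and 9.53% had an unadjusted p under 0.05 in limma. Neutrophil genes, 11 of 11 with a positive difference and 6 at an unadjusted p under 0.05, had a summed level of 9.68 to 10.50 in Control arrays. In Sca1-HGAL arrays it was 9.88 to 11.50, lowest in replicate 3 and highest in replicate 1. Ngp, a neutrophil granule gene, had a log2 difference of 1.40 (SE 0.76, limma adjusted p = 0.60). T cell genes had summed levels of 12.36 to 12.50 and of 12.16 to 12.79, again lowest in replicate 3 and highest in replicate 1, with 7 of 10 differences positive and a median of 0.08. Both cell types carry beta-1 or beta-2 integrins and CD44, and their part in these values was not tested.

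Platelet and megakaryocyte genes, 6 of 6 positive with a median of 0.23, had summed levels of 9.74 to 10.30 and of 9.98 to 11.19, highest in Sca1-HGAL replicate 4. Their part in these values was not tested. Macrophage and monocyte genes, 5 of 10 positive and 5 negative, had a median of 0.04 and summed levels of 11.08 to 11.64 and of 11.09 to 11.75. Adgre1, a macrophage surface gene, had a log2 difference of 1.01 (SE 0.19, limma adjusted p = 0.122). It was the only one of the 10 at an unadjusted p under 0.05, near the share of 9.53% over all genes. The other 9 lay between -0.23 and 0.26. The medians were -0.11 for NK cells (6 of 7 differences negative), -0.43 for plasmacytoid dendritic cells (4 of 4 negative) and -0.09 for plasma cells (5 of 7 negative). Each of these lists had 2 genes lower at an unadjusted p under 0.05, against 4.03% of all genes. Their largest differences were, in that order, Gzma at -0.77 (SE 0.20), Ccr9 at -0.83 (SE 0.23) and Slamf7 at -0.64 (SE 0.14). The medians were 0.06 for endothelial and stromal cells and -0.05 for B cells. Erythroid genes had a median of -0.13, with 3 of 4 differences negative and Alas2 at 0.88 (SE 0.43, limma adjusted p = 0.56). The summed erythroid level was 10.51 to 12.60 in Control and 11.59 to 12.08 in Sca1-HGAL arrays. Marginal zone B genes, the subset that depends on LFA-1 and alpha-4 beta-1, had a median of -0.53. Of their differences, 9 of 10 were negative, and 7 genes were lower at an unadjusted p under 0.05. Among all genes, 8699 of 19937 differences were negative and 4.03% were lower at such a p. The summed level of the marginal zone B genes was 14.20 to 14.50 in Control and 13.97 to 14.09 in Sca1-HGAL arrays. S1pr3, their sphingosine-1-phosphate receptor, had -0.83 (SE 0.17, limma adjusted p = 0.156). Follicular B genes had a median of -0.26, with 3 of 4 differences negative. Fcer2a, which encodes CD23, was at -0.42 (SE 0.10, limma adjusted p = 0.23). Named after their values were seen, Ccr7 had -0.41, Cxcr5 -0.11 and Klf2 0.10. RMA values carry no detection calls, so none of these markers can be called absent.

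The wider adhesion machinery was read from 7 lists with 105 measured genes. None passed limma at an adjusted p under 0.05. At an unadjusted p under 0.05 there were 15, 9 higher and 6 lower, or 14.3% against 9.53% of all genes. The median difference of the 105 was 0.01, against 0.02 over all genes.

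Among the 19 other integrin chains, 15 differences were positive and the median was 0.06. Itgam, the alpha-M chain that pairs with beta-2 as CD11b/CD18, was at 8.01, 7.71, 6.68 and 7.10 in Sca1-HGAL replicates 1 to 4, and at 6.15 to 6.65 in Control arrays. Its log2 difference was 0.99 (SE 0.26, limma adjusted p = 0.26). Itgax, the alpha-X chain of CD11c, had 0.48 (SE 0.12, limma adjusted p = 0.23). Both are also on the B-1 and age-associated B marker list, but neither is specific to B cells. The part of other cell types in their values was not tested. The shared beta chain Itgb2 thus stood at 0.06 beside alpha-L at -0.00019, alpha-M at 0.99 and alpha-X at 0.48. Control means were 10.28 for Itgb2, 6.39 for Itgam and 7.02 for Itgax. Itgb2 minus Itgam and Itgb2 minus Itgax were not tested. Itgav, the alpha-V chain of RGD-binding integrins, had -0.24 (SE 0.09, limma adjusted p = 0.45). Itgae, the alpha-E partner of beta-7, had 0.22 (SE 0.09, limma adjusted p = 0.51) at a Control mean of only 6.06. Itga8, the alpha-8 partner of beta-1, named after its values were seen, had 0.78 (SE 0.47, limma adjusted p = 0.65), with overlapping groups and an SD of 1.20 over the 4 Sca1-HGAL arrays against 0.13 in Control.

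Among 14 integrin ligands, 5 differences were positive and the median was -0.04. F11r, the junctional molecule JAM-A, had 0.31 (SE 0.12, limma adjusted p = 0.46) at a Control mean of only 6.14. The list's median was 0.06 when the 2 Xist-high arrays were left out. Among 9 other adhesion receptors the median was 0.03. Spn, the sialomucin CD43, was at 8.31, 8.72, 7.86 and 8.22 in Sca1-HGAL replicates 1 to 4, and at 7.51 to 7.88 in Control arrays. Replicate 3 lay within the Control range, and the part of other cell types in the Spn values was not tested. The log2 difference of Spn was 0.54 (SE 0.16, limma adjusted p = 0.32), and Cadm1, a cell adhesion molecule, had 0.19 (SE 0.07, limma adjusted p = 0.47).

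The intracellular genes around integrin activation had a median near 0. Among 22 such genes, 15 differences were negative and the median was -0.06. The list pools talins, kindlins and Rap1 with genes that restrain Rap1, such as Sipa1 and Rap1gap. Its median therefore does not describe activators alone. Skap1, an adaptor of inside-out signalling best known from T cells, had -0.34 (SE 0.11, limma adjusted p = 0.39). Fyb, its binding partner, had -0.39 (SE 0.30, limma adjusted p = 0.74). Fyb was at 6.04 on Sca1-HGAL replicate 3, at 7.14 to 7.65 on the other Sca1-HGAL arrays and at 7.14 to 7.82 in Control. Tln1, the talin that binds beta chain tails, had 0.13 (SE 0.07, limma adjusted p = 0.58) and Fermt3, the kindlin of blood cells, -0.06 (SE 0.06, limma adjusted p = 0.81), both named after their values were seen.

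Among 20 linkers and signalling genes the median was 0.01. Parvb, which joins integrin-linked kinase to actin, had 0.19 (SE 0.07, limma adjusted p = 0.42). Rsu1, a partner of the same complex, had -0.27 (SE 0.11, limma adjusted p = 0.50). Vcl, which encodes vinculin, had -0.14 (SE 0.06, limma adjusted p = 0.52).

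Tetraspanins and CD98 are membrane proteins that associate with beta-1 integrins. Of 10 genes, 8 had negative differences, with a median of -0.04. Slc3a2, the CD98 heavy chain that binds beta-1 tails, was at 11.96, 11.98, 12.03 and 11.80 in Control replicates 1 to 4. It was at 11.69, 11.64, 11.69 and 11.83 in Sca1-HGAL replicates 1 to 4, so the groups overlapped through the last replicate of each. Its log2 difference was -0.23 (SE 0.07, limma adjusted p = 0.33). Cd82 had 0.16 (SE 0.06, limma adjusted p = 0.47) and Cd53 -0.13 (SE 0.06, limma adjusted p = 0.51). Of the 11 CD44 linkers and hyaluronan genes, 0 had an unadjusted p under 0.05 in limma, and the median was 0.03. Has2, a hyaluronan synthase, had the largest difference, 0.16 (SE 0.09, limma adjusted p = 0.63), at a Control mean of only 5.50.

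**Figure D4:**
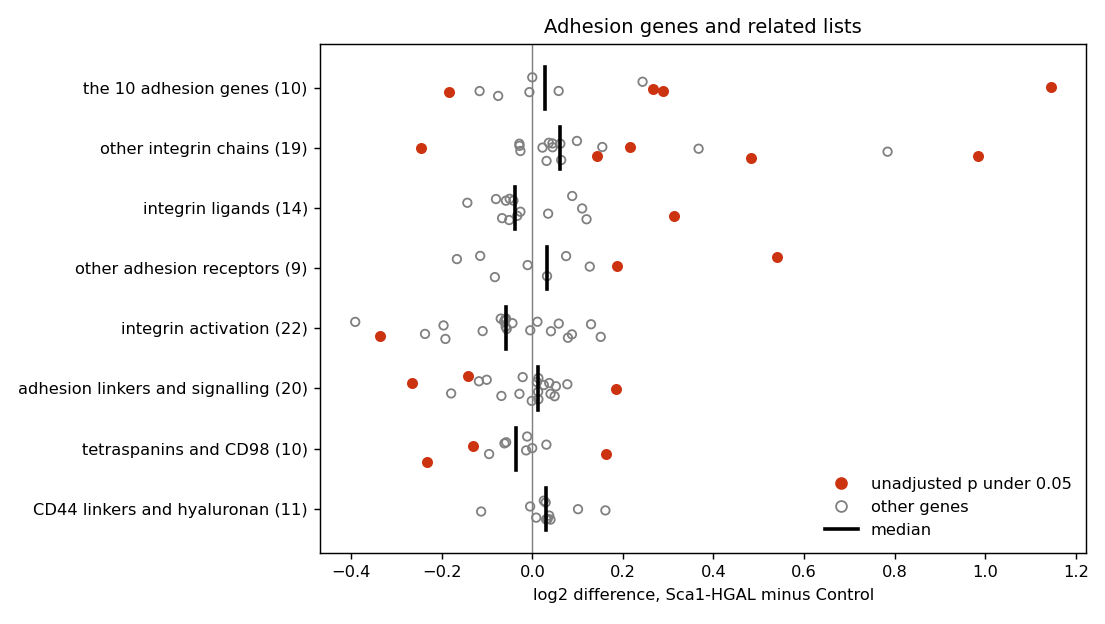
Log2 difference, Sca1-HGAL minus Control (horizontal axis), of every measured gene of the 10 adhesion genes and the 7 related lists, with filled points for an unadjusted p under 0.05 and a bar at each median. Itgb1 at 1.15 and Itgam at 0.99 lie farthest from 0, and every list's median lies between -0.06 and 0.06.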

How the data were processed

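Sorted CD22+B220+ spleen cells of 4 Sca1-HGAL and 4 Control samples were measured on Affymetrix arrays, 1 per sample, and grouped by their titles. The authors deposited RMA intensities, as the labels' processing notes record. The genome build, like the RMA version and annotation, is not given in the sources used here. Deposited intensities were linear, from 4.94 to 24302, and log2 was taken with no pseudocount or filter. RMA removes shifts shared by most genes and shrinks differences of dim probe sets. Precision is limited by 4 arrays per group. Of 34760 probe sets, 21640 had 1 gene symbol, 1321 several and 11799 none in the platform table.

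Groups were compared with limma 3.58.1 in R 4.3.3 (lmFit, eBayes, two-sided, Benjamini-Hochberg over 21640 probe sets), tested on simulated data. The genes, the 7 pathway and 13 marker lists, the tests and the naming rule were chosen with earlier results of these data known. Of 109 pathway and 111 marker genes, 105 and 100 were measured, and the others are not analysed here. The rule named all 10 genes, up to 4 genes per pathway list at an unadjusted p under 0.05 plus the largest difference, the 5 nearest profiles, and 2 genes per marker list, not all printed. Partner chains were compared by exact permutation. No sign that the shared replicate numbers pair the samples was seen, with correlations of same-numbered deviations from -0.16 to 0.05. Low correlations cannot show that the samples were unpaired.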

Additional observations from a re-analysis of the deposited data

Results flagged for a closer look

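A single array stood apart from the other 3 of its group for 5 of the values checked. Itgb1 was lowest in Control replicate 1, at 8.49, with the other Control arrays at 8.90 to 8.98. Without that array the log2 difference of Itgb1 was 1.04. Itgae was also lowest in Control replicate 1, at 5.82, against 6.12 to 6.17. Adgre1 was highest in Sca1-HGAL replicate 2, at 9.36, against 8.55 to 8.67. Gzma was highest in Sca1-HGAL replicate 1, at 6.41, against 6.09 to 6.13. Pacsin1 was lowest in Sca1-HGAL replicate 3, at 8.12, against 8.27 to 8.30. Of 130 groups of 4 values checked, chance alone gives about 6.5 such arrays.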

How the results depend on the processing

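Of 479 values recomputed under 18 alternatives, 448 were counted as unchanged, and 0 of the 10 genes passed limma under any alternative. A count was unchanged when it stayed within a fixed ratio of the reported count. A gene's difference, or a tested partner difference, was unchanged when it kept its direction and its side of the threshold. A list median, or an untested partner difference, was unchanged when it moved by less than the spread between arrays. The count of called probe sets, 1 as reported, was 12 with array weights, 6 with the replicate block, 2 with probe sets averaged per gene, 2 without the Xist-high arrays, and 1 to 40 when single arrays were left out, with 40 without Sca1-HGAL replicate 3. The replicate block, which rests on numbers not known to pair the samples, gave Itgb1 1.15 (limma adjusted p = 0.45) and no call among the 10 genes. The number of the 10 genes at an unadjusted p under 0.05, 4 as reported, was 1 without the Xist-high arrays and 2 to 4 with single arrays left out. The number whose groups did not overlap, 2 as reported, was 0 with a second quantile normalisation or median centring and 2 to 4 with single arrays left out, with 4 without Sca1-HGAL replicate 4. Differences near 0 changed sign. Itgal was 0.025 and Icam1 0.016 after a second quantile normalisation, and with single arrays left out Itgal ranged from -0.045 to 0.072, Icam1 from -0.051 to 0.029 and Itga6 from -0.18 to 0.010. The integrin ligand median was 0.058 without the Xist-high arrays and -0.053 to 0.055 with single arrays left out, that of integrin activation -0.070 to -0.021 and that of linkers and signalling -0.013 to 0.013. Itgb1 minus Itga4, Itga5 and Itga6 ranged from 0.87 to 1.60, from 0.70 to 1.20 and from 0.94 to 1.61 with single arrays left out, Itgb7 minus Itga4 from 0.22 to 0.47, and Itga5 from 0.14 to 0.32. The cause of these changes was not tested. Itga5 lay below the filter at log2 7 and has no value there, and partner differences were not recomputed under the trended prior, which does not change them.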
